A study of Mus musculus with 11 samples.

Results

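The genes described here were 39 members of glycolysis and of the response to low oxygen, chosen by name from the 24421 genes listed in each RNA-seq count table. They were grouped by role into 3 glucose and lactate transporters, 16 glycolytic enzymes, 3 regulators of glycolytic flux, 6 genes for hypoxia-inducible factors (HIF) and oxygen sensing, and 11 other HIF targets. Of the 39 members, 38 passed edgeR's filter on low counts, which left 14045 genes for testing. The member left out was *Eno1*, the main enolase of most tissues, which was listed at 0 counts in all 7 libraries. For reads assigned to a gene, a count of 0 allows up to 0.178 to 0.222 CPM, the value of 3 counts in the largest and the smallest library. CPM values are counts scaled to the sum of all gene counts of the library. *Eno1b*, an annotated retrogene of *Eno1*, had 14 and 26 counts in WT unwounded, 65 and 93 in WT wounded, 24 in the unwounded library labelled cKO and 78 and 66 in the wounded ones. Reads aligned to more than 1 place were assigned to no gene. They made up 3.46% to 4.74% of the sum of gene counts, ambiguous reads and such reads in each library, which is not a share of all reads sequenced. Their part in the 0 counts of *Eno1* was not tested.

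The study compared sorted mouse keratinocytes from the wound margin with those of unwounded skin, in WT mice and in mice lacking GRHL3, a transcription factor of the epidermis, in keratinocytes. The question of the comparisons used here was how transcripts and open chromatin of keratinocytes differ with wounding and with GRHL3. RNA-seq gave 2 WT unwounded libraries, 2 WT wounded libraries, 1 unwounded library and 2 wounded libraries labelled GRHL3 KO. ATAC-seq, which marks open chromatin, gave 1 list of peaks for each of the 4 conditions. The WT mice were labelled C57BL/6, and the knockout carried floxed alleles of *Grhl3* with a *Krt14*-driven Cre transgene (*Grhl3*-cKO, here cKO), also labelled C57BL/6. The methods of the study write C57BL/6J and name the WT littermates *Krt14-Cre*-WT. *Krt14* drives Cre in basal keratinocytes and so in their progeny, while other cells of the skin keep the gene. The mice were 8 weeks old, and littermates of both sexes were used. Wounded samples were the 1 mm margins of 4 mm full-thickness punch wounds of the back at day 3, and unwounded samples came from skin away from the wounds. Cells were sorted for integrin alpha 6 (CD49F) and against markers of leukocytes, endothelium and red cells. The labels number the libraries but do not name the animals, so p-values measure the spread between these libraries.

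Glycolysis splits glucose into pyruvate, which lactate dehydrogenase turns into lactate when the sugar is not oxidised further. Under normal oxygen the EGLN prolyl hydroxylases mark HIF1α for removal through VHL, and when oxygen falls HIF1α pairs with ARNT and switches on genes for glucose uptake, glycolysis, blood vessel growth and pH control. The wounded epidermis is known for a high demand for glucose and for HIF1α protein at the wound edge, and HIF1α is set mainly by protein stability, which transcript counts do not show.

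Library sizes, as summed gene counts, were 15488699 and 16807451 in the WT unwounded libraries, 16653948 and 15418631 in the WT wounded libraries, 13497283 in the unwounded library labelled cKO and 15223569 and 14279568 in the wounded libraries labelled cKO. *Grhl3*, the targeted gene, had 122 and 83.2 CPM in the WT unwounded libraries, 109.9 and 90.0 CPM in the WT wounded libraries, 76.2 CPM in the unwounded library labelled cKO and 116 and 104 CPM in the wounded libraries labelled cKO. The ranges of the genotypes overlapped, and between the wounded groups the log2 fold change was 0.17 (SE 0.21, adjusted p = 1.0 in edgeR's quasi-likelihood test). The count covers the whole gene and not the deleted exons alone, so it does not check the label, and genotypes are given as labelled. The unwounded library labelled cKO stood apart in sex: *Xist* was at 1101 CPM and the 4 Y-linked genes at 0 CPM, while the other 6 libraries had Y-linked sums of 167 to 251 CPM. In every comparison with this single library, the label, the sex and the animal cannot be told apart.

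Basal keratinocyte markers were abundant in all 7 libraries (6 genes, most abundant *Krt14*), with sums of 34663 and 39054 (WT unwounded), 30890 and 44746 (WT wounded), 37006 (labelled cKO, unwounded) and 42911 and 36239 CPM (labelled cKO, wounded). Wound keratinocyte markers (5 genes, most abundant *Krt16*) summed to 4469 and 5569.6 (WT unwounded), 6523 and 9689 (WT wounded), 2623 (labelled cKO, unwounded) and 7025 and 4849.5 CPM (labelled cKO, wounded). Suprabasal markers (8 genes, most abundant *Krt1*) summed to 6451 and 7122 (WT unwounded), 3798 and 5511 (WT wounded), 9641 (labelled cKO, unwounded) and 6876 and 8541 CPM (labelled cKO, wounded). The unwounded library labelled cKO therefore had the lowest wound marker sum and the highest suprabasal sum of the 7 libraries, and both WT replicate 2 libraries had higher wound marker sums than their replicate 1. *Krt6a*, *Krt6b* and *Krt16* had this replicate order in both WT conditions. *Krt17* had the opposite order, at 2101 and 1641 CPM in WT unwounded and 2326 and 1816 CPM in WT wounded libraries. *Itga5* was higher in replicate 1 in WT unwounded (20.6 and 12.3 CPM) and in replicate 2 in WT wounded (28.4 and 45.6 CPM). Of the suprabasal markers, *Krt1*, *Krt10*, *Dsg1a* and *Sbsn* were highest in that cKO-labelled library, while *Krtdap*, *Dsc1* and *Ivl* were lower there than in both WT unwounded libraries. Endothelial markers (12 genes, most abundant *Flt1*) were low, at 5.04 and 7.50 (WT unwounded), 35.2 and 23.1 (WT wounded), 3.11 (labelled cKO, unwounded) and 17.5 and 16.4 CPM (labelled cKO, wounded). Mural markers (6 genes, most abundant *Acta2*) were at 1.29 and 3.93 (WT unwounded), 30.6 and 12.3 (WT wounded), 1.11 (labelled cKO, unwounded) and 3.81 and 8.96 CPM (labelled cKO, wounded). Both sums were higher in every wounded library than in the unwounded ones, apart from the mural sum of the first wounded library labelled cKO, which was below that of 1 WT unwounded library. Fibroblast markers (6 genes, most abundant *Col3a1*) were at 28.7 and 14.5 (WT unwounded), 19.6 and 46.6 (WT wounded), 11.04 (labelled cKO, unwounded) and 25.6 and 37.8 CPM (labelled cKO, wounded). Leukocyte markers (7 genes, most abundant *Cd74*, with *Cd3e* at 0 throughout) were at 7.75 and 16.1 (WT unwounded), 15.01 and 36.3 (WT wounded), 10.2 (labelled cKO, unwounded) and 16.6 and 19.0 CPM (labelled cKO, wounded). Melanocyte (4 genes, *Dct*) and skeletal muscle markers (6 genes, *Acta1*) reached at most 7.15 and 5.18 CPM, and 4 of 5 erythroid markers were at 0 (the other was *Alas2*). The part of cell makeup in the values below was not tested, and in these bulk libraries fewer cells of a type and less RNA per cell cannot be told apart.

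The glycolytic enzymes summed to 3676 and 4789 (WT unwounded), 3542 and 5207 (WT wounded), 2512 (labelled cKO, unwounded) and 5032 and 3725 CPM (labelled cKO, wounded). Both WT replicate 2 libraries were above both replicate 1 libraries, so the enzyme sum of the WT libraries followed the replicate and not the treatment. The other HIF targets summed to 591 and 627 (WT unwounded), 763 and 922 (WT wounded), 522 (labelled cKO, unwounded) and 858 and 698 CPM (labelled cKO, wounded). Here both WT wounded libraries lay above both WT unwounded ones. The transporters summed to 370.5 and 594 (WT unwounded), 428 and 777 (WT wounded), 295 (labelled cKO, unwounded) and 704 and 492 CPM (labelled cKO, wounded), with both WT replicate 2 libraries above both replicate 1 libraries. Flux regulators summed to 66.0 and 98.8 (WT unwounded), 72.0 and 119 (WT wounded), 57.5 (labelled cKO, unwounded) and 112 and 80.6 CPM (labelled cKO, wounded). Here too both WT replicate 2 libraries were above both replicate 1 libraries. The HIF and oxygen-sensing genes summed to 749 and 786 (WT unwounded), 830.4 and 968 (WT wounded), 654 (labelled cKO, unwounded) and 935 and 758 CPM (labelled cKO, wounded), with the wounded WT libraries above the unwounded ones. In all 5 groups the unwounded library labelled cKO was the lowest of the 7. Gene by gene, 22 of 38 members were lowest in that library, as were 19.4% of all genes tested, and 27 of 38 members had WT replicate 2 above replicate 1 in both conditions, as had 29.3% of all genes tested. The replicate order held for 12 of 15 tested enzymes, 3 of 3 transporters, 8 of 11 other HIF targets, 2 of 3 flux regulators and 2 of 6 HIF and oxygen-sensing genes.

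**Figure D1:**
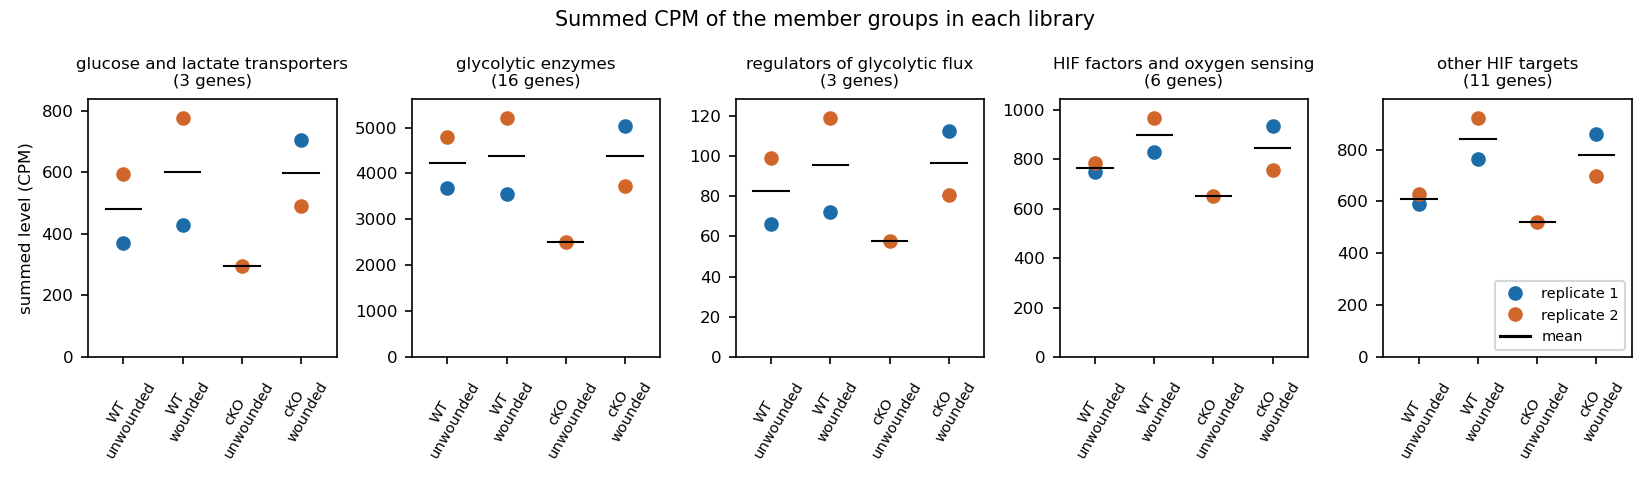
Summed level in CPM (vertical axis, from 0) of the 5 member groups in each of the 7 libraries, by genotype label and treatment (horizontal axis). Points are libraries coloured by replicate number and lines are means; the enzyme sums of WT wounded cells (3542 and 5207) enclose those of WT unwounded cells (3676 and 4789), while the sums of the other HIF targets do not overlap (591 and 627 against 763 and 922).

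Between WT wounded and WT unwounded keratinocytes no member passed the adjusted test: after Benjamini-Hochberg adjustment, edgeR's quasi-likelihood test called 0 of 38 members, against 0.0285% of all genes (4 of 14045). DESeq2 called 1 member, *Ndrg1* (adjusted p = 0.0448), and edgeR's likelihood ratio test called 0 (0.171% and 0.349% of all genes passed). With no filter on low counts the adjusted quasi-likelihood test called 2 members, *Ndrg1* and *Slc16a3*, beside 0.590% of all genes. At an unadjusted P under 0.05 the quasi-likelihood test called 7 members with no filter (5.57% of all genes) and 3 members with the filter. *Slc16a3* and *Ndrg1* were higher after wounding, where 3.18% of all genes were called higher, and *Vhl* was lower, where 1.67% of all genes were called lower. Both wounded WT libraries lay above both unwounded ones for 7 members (15.2% of all genes), namely *Slc16a3*, *Pfkm*, *Hif1a*, *Ndrg1*, *Car9*, *Ddit4* and *Adm*, and below them for 2 members (18.3% of all genes), *Ldhb* and *Vhl*. The count at unadjusted P became 10 when WT wounded replicate 1 was left out (5.57% of all genes) and 5 when WT unwounded replicate 2 was (4.47%).

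With the wounded and unwounded libraries of both genotypes in an additive fit, 10 of 38 members were higher after wounding at an unadjusted P under 0.05 (3.69% of all genes were), and 0 were lower (2.93% of all genes were). They were *Slc2a1*, *Slc16a3*, *Pfkl*, *Tpi1*, *Pfkfb3*, *Hif1a*, *Vegfa*, *Bnip3*, *Ndrg1* and *Ddit4*. After adjustment edgeR's quasi-likelihood test called 0 of them, against 0.0356% of all genes, while DESeq2 called 2 (*Ndrg1* and *Vegfa*, with 0.897% of all genes) and the likelihood ratio test called 2 (*Ndrg1* and *Slc16a3*, with 0.833% of all genes). With no filter on low counts the adjusted quasi-likelihood test called 9 members, beside 1.87% of all genes. This fit uses all 7 libraries, 4 wounded and 3 unwounded, and so includes the 4 WT libraries of the WT comparison. The count at unadjusted P, in both directions, was 3 without the unwounded library labelled cKO (5.02% of all genes), 4 without WT wounded replicate 2 (5.58%), 6 without the first wounded library labelled cKO (5.68%), 19 without WT unwounded replicate 2 (8.11%) and 21 without WT wounded replicate 1 (9.01%). Without WT wounded replicate 1, 5 members (*Slc2a1*, *Slc16a3*, *Pfkl*, *Vegfa* and *Bnip3*) also passed the adjusted quasi-likelihood test, as did 0.861% of all genes.

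*Slc2a1*, the glucose transporter GLUT1 of basal keratinocytes (chr4:119108711-119137983, plus strand, mm10), had 252 and 429 CPM in WT unwounded cells, 303 and 574 CPM after wounding, 211 CPM in the cKO-labelled unwounded library and 518 and 371 CPM in the cKO-labelled wounded ones. Both WT replicate 2 libraries were the higher ones, so the unwounded and wounded ranges overlapped, and the unwounded library labelled cKO was the lowest. The log2 fold change with wounding was 0.40 in WT (SE 0.28, adjusted p = 0.986 in edgeR's quasi-likelihood test) and 0.66 over both genotypes (SE 0.25, adjusted p = 0.562). The WT value was -0.15 without WT wounded replicate 2. *Slc16a3*, the lactate exporter MCT4 (chr11:120948480-120960868, plus strand), had 16.1 and 24.7 CPM in the WT unwounded libraries, 24.8 and 70.6 CPM in the WT wounded libraries, 4.89 CPM in the unwounded library labelled cKO and 47.2 and 16.5 CPM in the wounded libraries labelled cKO. The WT groups did not overlap, but the first wounded library was barely above the second unwounded one, and the difference rested on WT wounded replicate 2. The log2 fold change was 1.25 in WT (SE 0.47, unadjusted P = 0.0167 and adjusted p = 0.858 in edgeR's quasi-likelihood test) and 1.75 over both genotypes (SE 0.45, adjusted p = 0.220). The wounded libraries labelled cKO were 1.68 and 3.27 above their unwounded library on the log2 scale. *Slc16a1*, the lactate carrier MCT1, ranged from 79.3 to 141 CPM with a WT log2 fold change of -0.05 (SE 0.22). Per kb of exon, the mean level over the 7 libraries was 116 CPM for *Slc2a1*, 25.7 for *Slc16a1* and 6.58 for *Slc16a3*.

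Among the enzymes, mean levels per kb of exon were highest for the pyruvate kinase gene *Pkm* (351 CPM per kb), followed by *Gapdh* (302), *Ldha* (234) and *Aldoa* (193), and lowest among the tested enzymes for *Aldoc* (2.55) and *Pfkm* (5.75). *Pkm* (chr9:59656368-59679375, plus strand), which makes pyruvate in the final step, had 776 and 1109.6 CPM in the WT unwounded libraries, 766 and 1215 CPM in the WT wounded libraries, 514 CPM in the unwounded library labelled cKO and 1158 and 843 CPM in the wounded libraries labelled cKO. *Gapdh*, the glyceraldehyde-3-phosphate dehydrogenase gene (chr6:125161715-125166467, minus strand), was at 410.4 and 541 CPM before and 390 and 582 CPM after wounding in WT, and at 242 CPM before and 604 and 389 CPM after wounding with the cKO label. *Ldha*, whose product turns pyruvate into lactate (chr7:46841475-46855627, plus strand), was at 377 and 524 CPM before and 364 and 593 CPM after wounding in WT, and at 237 CPM before and 606 and 401 CPM after wounding with the cKO label. For all 3 genes both WT unwounded values lay between the WT wounded values, and the unwounded library labelled cKO was the lowest of the 7.

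With wounding in WT, the log2 fold changes were 0.10 for *Pkm* (SE 0.23), 0.06 for *Gapdh* (SE 0.23) and 0.12 for *Ldha* (SE 0.24), each with an adjusted p of 1.0 in edgeR's quasi-likelihood test. The direction rested on single libraries: without WT wounded replicate 2 the values were -0.28 for *Gapdh* and -0.30 for *Ldha*, and without WT unwounded replicate 1 they were -0.12 and -0.09. *Pfkl*, the liver-type phosphofructokinase gene of the committed step (chr10:77986947-78010083, minus strand), had 77.7 and 126 CPM in the WT unwounded libraries, 83.6 and 180.1 CPM in the WT wounded libraries, 50.6 CPM in the unwounded library labelled cKO and 153 and 94.2 CPM in the wounded libraries labelled cKO. *Tpi1*, the triose phosphate isomerase gene (chr6:124810586-124814296, minus strand), had 115 and 161 (WT unwounded), 115 and 195 (WT wounded), 66.8 (labelled cKO, unwounded) and 203 and 127 CPM (labelled cKO, wounded). For both genes WT replicate 2 was above replicate 1 in both conditions, with overlapping WT groups and the unwounded library labelled cKO lowest. Over both genotypes the log2 fold change with wounding was 0.74 for *Pfkl* (SE 0.29, adjusted p = 0.616 in edgeR's quasi-likelihood test) and 0.61 for *Tpi1* (SE 0.27, adjusted p = 0.684), and in WT alone it was 0.40 and 0.20. *Gapdh*, *Ldha*, *Pgk1*, *Pgam1* and *Aldoa* have processed pseudogenes in the annotation, and reads aligned to a copy as well are among those assigned to no gene.

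The remaining 10 tested enzymes had WT log2 fold changes from -0.42 (*Ldhb*) to 0.28 (*Pfkm*), none with an unadjusted P under 0.05. *Ldhb*, the lactate dehydrogenase subunit of oxidative tissues, was lower in both WT wounded libraries (53.6 and 44.0 CPM) than in both unwounded ones (63.6 and 68.8 CPM), with an adjusted p of 0.984 in edgeR's quasi-likelihood test. *Hk2*, the inducible hexokinase, had the opposite replicate order in WT, at 279.9 and 258 CPM in replicate 1 against 175 and 191 CPM in replicate 2. *Hk1*, *Gpi1*, *Pfkp*, *Aldoa*, *Pgk1* and *Pgam1* were moderately to highly counted, from a lowest value of 126 CPM (*Pgk1*) to a highest of 613 CPM (*Aldoa*), while *Pfkm* and *Aldoc* stayed at or under 22.3 CPM in every library.

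Of the flux regulators, *Pfkfb3*, whose product makes the activator of phosphofructokinase (chr2:11471433-11554077, minus strand), had 21.6 and 42.1 CPM in WT unwounded cells, 25.5 and 52.3 CPM after wounding, 11.04 CPM in the cKO-labelled unwounded library and 42.9 and 33.1 CPM in the cKO-labelled wounded ones. The WT groups overlapped in replicate order, and the unwounded library labelled cKO was below all others. Its log2 fold change was 0.32 in WT (SE 0.34, adjusted p = 1.0 in edgeR's quasi-likelihood test), while the wounded libraries labelled cKO were 1.53 and 1.97 above their unwounded library on the log2 scale. *Pdk1*, the kinase that keeps pyruvate out of mitochondria (chr2:71873224-71903858, plus strand), was the highest of the 3 per kb of exon (9.96 CPM per kb, against 5.91 for *Pfkfb3* and 0.667 for *Pfkfb4*). It had 42.3 and 55.5 (WT unwounded), 42.5 and 64.9 (WT wounded), 44.1 (labelled cKO, unwounded) and 66.3 and 45.8 CPM (labelled cKO, wounded). Again replicate 2 was the higher WT library, and the log2 fold change in WT was 0.16 (SE 0.26). *Pfkfb4*, a related isoform, ranged from 1.25 to 4.02 CPM.

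*Hif1a*, the oxygen-regulated subunit (chr12:73901375-73947530, plus strand), was at 445 and 376 CPM before and 509 and 522 CPM after wounding in WT, and at 374 CPM before and 511 and 418 CPM after wounding with the cKO label. Both WT wounded libraries were above both unwounded ones and close to each other, and the groups labelled cKO were in the same order. The log2 fold change was 0.35 in WT (SE 0.17, unadjusted P = 0.0520 and adjusted p = 0.984 in edgeR's quasi-likelihood test) and 0.33 over both genotypes (SE 0.13, adjusted p = 0.626). *Vhl*, which marks hydroxylated HIF for removal (chr6:113623959-113631633, plus strand), had 7.42 and 10.5 CPM in the WT unwounded libraries, 3.72 and 3.05 CPM in the WT wounded libraries, 3.56 CPM in the unwounded library labelled cKO and 7.23 and 4.90 CPM in the wounded libraries labelled cKO. The wounded WT libraries were below the unwounded ones, and the libraries labelled cKO were in the opposite order, at low counts (47 to 176 per library). In WT the log2 fold change was -1.37 (SE 0.48, unadjusted P = 0.0115 and adjusted p = 0.811 in edgeR's quasi-likelihood test). Of the other members of this group, the prolyl hydroxylase genes *Egln1* and *Egln3* were higher in WT replicate 2 than in replicate 1 in both conditions (WT log2 fold changes 0.19 and 0.27), and the HIF subunit genes *Epas1* and *Arnt* had values of 0.18 and -0.09. Per kb of exon *Hif1a* was the highest of the 6 (82.7 CPM per kb) and *Vhl* the lowest (2.06).

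*Ndrg1*, a stress-induced differentiation gene of epithelia and the HIF target highest per kb of exon (103 CPM per kb, chr15:66929318-66969640, minus strand), had 226 and 205 CPM in WT unwounded cells, 346 and 386 CPM after wounding, 245 CPM in the cKO-labelled unwounded library and 404 and 279.6 CPM in the cKO-labelled wounded ones. The WT wounded libraries were well above the unwounded ones, and the 2 replicates of each WT group lay close together. The log2 fold change was 0.79 in WT (SE 0.19, unadjusted P = 0.000812 and adjusted p = 0.317 in edgeR's quasi-likelihood test), the lowest adjusted p of the members in this comparison, and 0.66 over both genotypes (SE 0.16, adjusted p = 0.161). *Vegfa*, the vascular growth factor (chr17:46016993-46032369, minus strand), had 108 and 132 CPM in the WT unwounded libraries, 131 and 165 CPM in the WT wounded libraries, 44.0 CPM in the unwounded library labelled cKO and 133 and 114 CPM in the wounded libraries labelled cKO. The WT groups overlapped slightly, with the second unwounded library just above the first wounded one, and the unwounded library labelled cKO was far below the other 6. Its log2 fold change was 0.33 in WT (SE 0.19) and 0.76 over both genotypes (SE 0.22, adjusted p = 0.313 in edgeR's quasi-likelihood test).

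*Bnip3*, a mitophagy receptor (chr7:138890836-138909519, minus strand), was at 23.8 and 32.5 CPM before and 23.0 and 62.6 CPM after wounding in WT, and at 19.3 CPM before and 48.4 and 41.3 CPM after wounding with the cKO label. Among the WT libraries only wounded replicate 2 stood out, and the first wounded library was the lowest of the 4. *Ddit4*, an inhibitor of mTOR signalling (chr10:59949669-59951834, minus strand), was at 12.1 and 20.4 CPM before and 21.6 and 26.9 CPM after wounding in WT, and at 7.26 CPM before and 18.6 and 13.5 CPM after wounding with the cKO label. Both wounded WT libraries were above both unwounded ones, by little in the case of the first. Over both genotypes the log2 fold change was 0.85 for *Bnip3* (SE 0.29, adjusted p = 0.482 in edgeR's quasi-likelihood test) and 0.81 for *Ddit4* (SE 0.27, adjusted p = 0.448). *Car9*, the carbonic anhydrase used as a marker of hypoxic tissue (chr4:43506966-43513729, plus strand), had 2.195 and 3.99 (WT unwounded), 5.16 and 5.58 (WT wounded), 2.52 (labelled cKO, unwounded) and 5.58 and 2.52 CPM (labelled cKO, wounded), from 34 to 86 counts per library. The WT groups did not overlap, but the wounded libraries labelled cKO were as high as the WT wounded ones in replicate 1 and as low as the unwounded library in replicate 2. Its WT log2 fold change was 0.82 (SE 0.62, adjusted p = 0.987 in edgeR's quasi-likelihood test). *Ankrd37*, an ankyrin repeat gene induced by HIF (chr8:45996902-46005707, minus strand), had 2.07 and 4.94 (WT unwounded), 4.38 and 5.77 (WT wounded), 0.519 (labelled cKO, unwounded) and 3.28 and 3.502 CPM (labelled cKO, wounded), the lowest being 7 counts. Its WT groups overlapped. The other 5 HIF targets, *Bnip3l* (mitophagy), *Ero1l* (disulfide formation), *P4ha1* and *P4ha2* (collagen prolyl hydroxylases) and *Adm* (a vasoactive peptide), had WT log2 fold changes from 0.14 (*Bnip3l*) to 0.58 (*Adm*).

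Set side by side, the other HIF targets had a higher median fold change with wounding in WT than the glycolytic enzymes, while single members of the groups overlapped. The median log2 fold change was 0.56 over the 11 other HIF targets, all above 0, and 0.10 over the 15 tested enzymes, 12 of them above 0, with 0.00 over all genes tested. Transporters had a median of 0.40, flux regulators 0.32 and HIF and oxygen-sensing genes 0.19. As a level, the median log2 CPM of the list had an SD between replicates of 0.33 for the enzymes and 0.49 for the other HIF targets. Without WT wounded replicate 2 the medians were -0.28 for the enzymes and 0.17 for the other HIF targets. Over both genotypes they were 0.33 and 0.66. Within the cKO label, against its single unwounded library, the order was the reverse, at 0.65 for the enzymes and 0.51 for the other HIF targets. The difference between the groups was not tested, as the members were chosen and are not replicates of a condition.

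Between wounded keratinocytes labelled cKO and WT wounded keratinocytes the members differed little against the spread of the libraries. edgeR's quasi-likelihood test called 0 of 38 members after adjustment (0% of all genes), as did DESeq2 (0.0214% of all genes) and the likelihood ratio test (0.00712%), and 0 members at an unadjusted P under 0.05, where 1.96% of all genes were called higher and 2.08% lower. The lowest unadjusted P was 0.0751, for *Hk2*, with 165 and 168 CPM in the cKO-labelled and 258 and 191 CPM in the WT wounded libraries and a log2 fold change of -0.41 (SE 0.21). These ranges did not overlap. At an unadjusted P under 0.05 the quasi-likelihood test called 1 member with the replicate numbers as a block (4.24% of all genes). With no filter on low counts it called 2 (4.77%). The median log2 fold change was 0.06 for the enzymes and -0.10 for the other HIF targets, and -0.01 over all genes. Single members were at 0.04 for *Slc2a1* (SE 0.28), 0.06 for *Gapdh* (SE 0.23), 0.10 for *Ldha* (SE 0.24), -0.13 for *Hif1a* (SE 0.17), -0.23 for *Vegfa* (SE 0.19) and -0.37 for *Car9* (SE 0.62). With 2 libraries a group, differences of several times the SE could also go uncalled after adjustment. The suprabasal marker *Krt10*, at 0.87 (SE 0.16) in this comparison, had an adjusted p of 0.459 in edgeR's quasi-likelihood test. Without WT wounded replicate 2, 5 members had an unadjusted P under 0.05 (6.16% of all genes), and the enzyme median was 0.39.

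Within the cKO label, both wounded libraries were at least 2-fold above the single unwounded library for 5 of 38 members, *Slc16a3*, *Pfkfb3*, *Vegfa*, *Bnip3* and *Ankrd37*, against 5.69% of all genes. At least 2-fold lower in both were 0 members, against 3.89% of all genes. This comparison was described without a test of its own, as it has 1 unwounded library. Without the second wounded library the count of higher members was 18 (9.69% of all genes). Without the first it was 5, beside 11.3% of all genes. The wounded libraries were 1.33 and 1.62 above it for *Vegfa*, 1.04 and 1.35 for *Bnip3* and 2.43 and 2.44 for *Ankrd37*, on the log2 scale with a prior count of 2. The median log2 fold change was 0.65 for the enzymes and 0.51 for the other HIF targets, with 0.02 over all genes.

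The difference of the wounding responses, cKO label minus WT, was fitted only to find genes to look at, since 1 of its 4 arms is a single library. Its p-values hold only if that library varies like the other groups, and genotype, sex and animal cannot be told apart in it. The difference passed the adjusted quasi-likelihood test of edgeR for 0 members (0.185% of all genes passed), as it did with DESeq2 (0.605% of all genes) and the likelihood ratio test (0.698%). With no filter on low counts *Tpi1*, *Gapdh*, *Pgam1*, *Ldha* and *Vegfa* passed the adjusted quasi-likelihood test, as did 1.25% of all genes. Under that assumption, at an unadjusted P under 0.05 the response was larger with the cKO label for 9 members, where 3.83% of all genes were called in this direction, and smaller for 0 members, where 2.94% were. The 9 were the enzyme genes *Tpi1*, *Gapdh*, *Pgk1*, *Pgam1*, *Pkm* and *Ldha*, the flux regulator *Pfkfb3*, *Vhl* and *Vegfa*. *Vegfa* had the lowest adjusted p of the members (0.241 in edgeR's quasi-likelihood test), with a difference of 1.16 (SE 0.31) on the log2 scale. The median difference was 0.54 for the enzymes and 0.13 for the other HIF targets. All of these use the single unwounded library labelled cKO, which was the lowest of the 7 for each of the 9 but *Vhl*. It also had the lowest wound keratinocyte and highest suprabasal marker sums. The count in both directions was 1 without WT unwounded replicate 2, 2 without WT wounded replicate 1, 3 without the first wounded library labelled cKO, 15 without the second, 16 without WT unwounded replicate 1 and 19 without WT wounded replicate 2, while 5.06% to 9.26% of all genes were called in these settings.

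**Figure D2:**
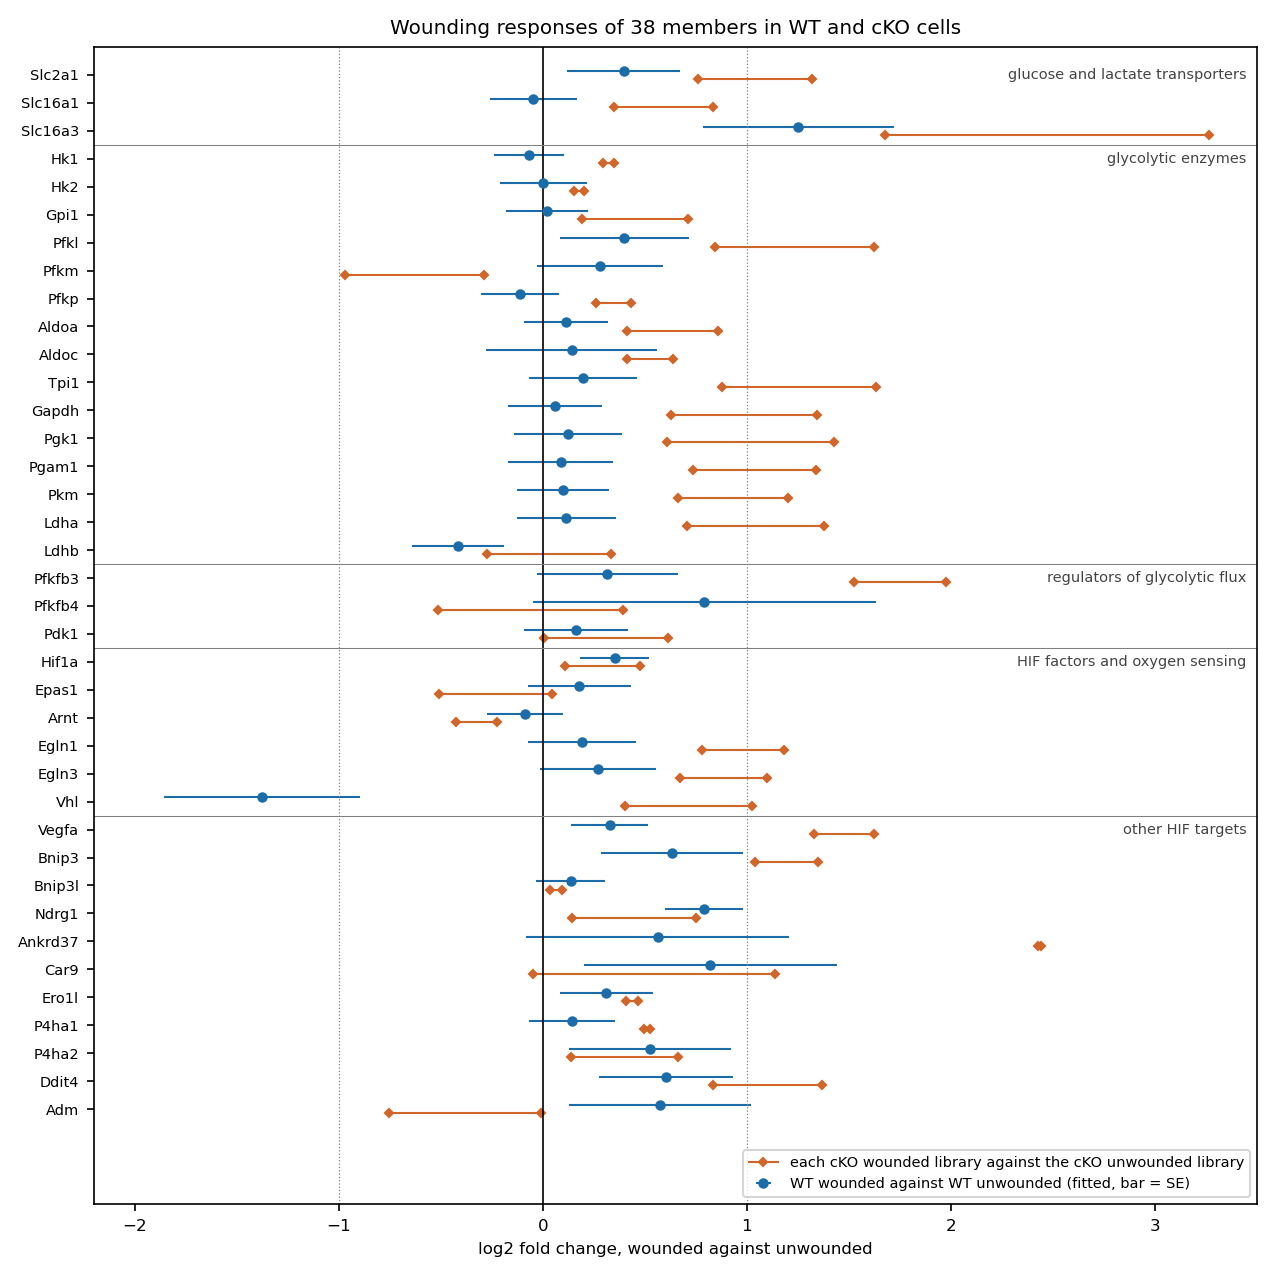
Log2 fold change of wounded against unwounded cells (horizontal axis) for the 38 tested members, ordered by role. Blue points are the fitted WT values with their SE, and orange points joined by a line are the 2 wounded libraries labelled cKO, each against the single unwounded library; dotted lines mark 2-fold. In WT the 11 other HIF targets lie above 0 and most enzymes lie near it (medians 0.56 and 0.10).

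Other genes of these pathways were in part above and in part below 0. Of 31 further glycolysis and pyruvate genes, 26 were tested, with a median log2 fold change in WT wounding of -0.07, 10 above and 16 below 0. In WT wounding 1 of them had an unadjusted P under 0.05. That was the neuronal enolase gene *Eno2*, at 0 and 0.119 CPM in WT unwounded and 1.02 and 1.62 CPM in WT wounded libraries (unadjusted P = 0.0452 in edgeR's quasi-likelihood test), too few counts for a fold change. With the cKO label it was in the opposite order, at 1.11 CPM before and 0.526 and 0.840 CPM after wounding. None of the 26 had an unadjusted P under 0.05 between the wounded groups. The pentose phosphate pathway, which branches from glycolysis to make NADPH and ribose, had 7 of 7 genes tested and 0 with an unadjusted P under 0.05 in any of these comparisons. Its 7 genes were all below 0 in WT wounding (median -0.19), as were 49.2% of all genes, and their sums were 587 and 683 (WT unwounded), 523 and 566 (WT wounded), 469 (labelled cKO, unwounded) and 534 and 488 CPM (labelled cKO, wounded). Both WT wounded sums were below both WT unwounded sums.

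Of 35 further HIF pathway and hypoxia-induced genes, 34 were tested, with a WT median of 0.18, 22 above and 12 below 0. *Arnt2*, a relative of *Arnt*, had 0.968 and 5.18 (WT unwounded), 0.480 and 0.454 (WT wounded), 0.963 (labelled cKO, unwounded) and 2.76 and 1.40 CPM (labelled cKO, wounded), with 1 WT unwounded library far above the other WT libraries. Its WT log2 fold change was -2.67 (SE 1.13, adjusted p = 0.956 in edgeR's quasi-likelihood test). *Rora*, a nuclear receptor gene, was at 222 and 205 CPM before and 215 and 242 CPM after wounding in WT, and at 476 CPM before and 309 and 345 CPM after wounding with the cKO label. All 3 libraries labelled cKO were above all 4 WT libraries, with a log2 fold change between the wounded groups of 0.54 (SE 0.16, unadjusted P = 0.00359 and adjusted p = 1.0 in edgeR's quasi-likelihood test). In the cKO label 6 of these genes were at least 2-fold higher in both wounded libraries, and of the further glycolysis genes 1 was at least 2-fold higher and 2 at least 2-fold lower (5.69% and 3.89% of all genes were).

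Open chromatin was described by the deposited broad peaks within 5 kb of each gene body (GENCODE vM21 on mm10). The lists hold 10769 peaks in WT unwounded, 36872 in WT wounded, 29364 in cKO unwounded and 22474 in cKO wounded keratinocytes. At least 1 peak lay near 23 of 39 members in the WT unwounded list (50.7% of 13509 genes tested and annotated), 35 in WT wounded (84.6%), 36 in cKO unwounded (81%) and 32 in cKO wounded (68.8%). Enzymes had a peak in 9, 15, 15 and 14 of 16 cases and the other HIF targets in 8, 9, 10 and 8 of 11. With lists of equal length the members with a peak were 23, 19, 19 and 19, beside 50.7%, 45.1%, 47.4% and 45.3% of genes. Each condition has 1 list, and no replicate check was possible.

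Across the lists 23 members had a peak in all 4 (48% of genes had), 9 in all but WT unwounded (18.5%), 3 (*Pfkl*, *Pdk1* and *Car9*) in WT wounded and cKO unwounded only (9.56%), and 1 (*Vegfa*) in cKO unwounded only (2.32%). No listed peak lay within 5 kb of 3 members, *Slc16a3*, *Aldoc* and *Adm* (12.1% of genes). At the start of *Ldhb* a peak was listed with a fold enrichment over local background of 5.06 in WT unwounded, 6.30 in WT wounded, 4.88 in cKO unwounded and 6.08 in cKO wounded keratinocytes. In *Pfkfb3* the strongest peak lay inside the gene, at chr2:11535422-11535976 in WT wounded, with a fold enrichment of 5.34, 6.84, 6.27 and 6.22 in the same order. Peaks over the start of *Pfkfb3* itself were listed in WT wounded (4.69) and cKO unwounded (3.88), and a peak 160 bases inside it in cKO wounded (4.57). At *Ankrd37* the fold enrichments in the same order were 5.87, 6.49, 7.54 and 6.42, that in cKO unwounded being the highest of any member. *Ldha* had no listed peak in WT unwounded and 3 in each of the other lists, the strongest of them upstream of the gene (4.41 in WT wounded, 5.34 in cKO unwounded and 4.30 in cKO wounded). A gene without a listed peak is below the caller's threshold in that list, which is not a measure of closed chromatin.

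**Figure D3:**
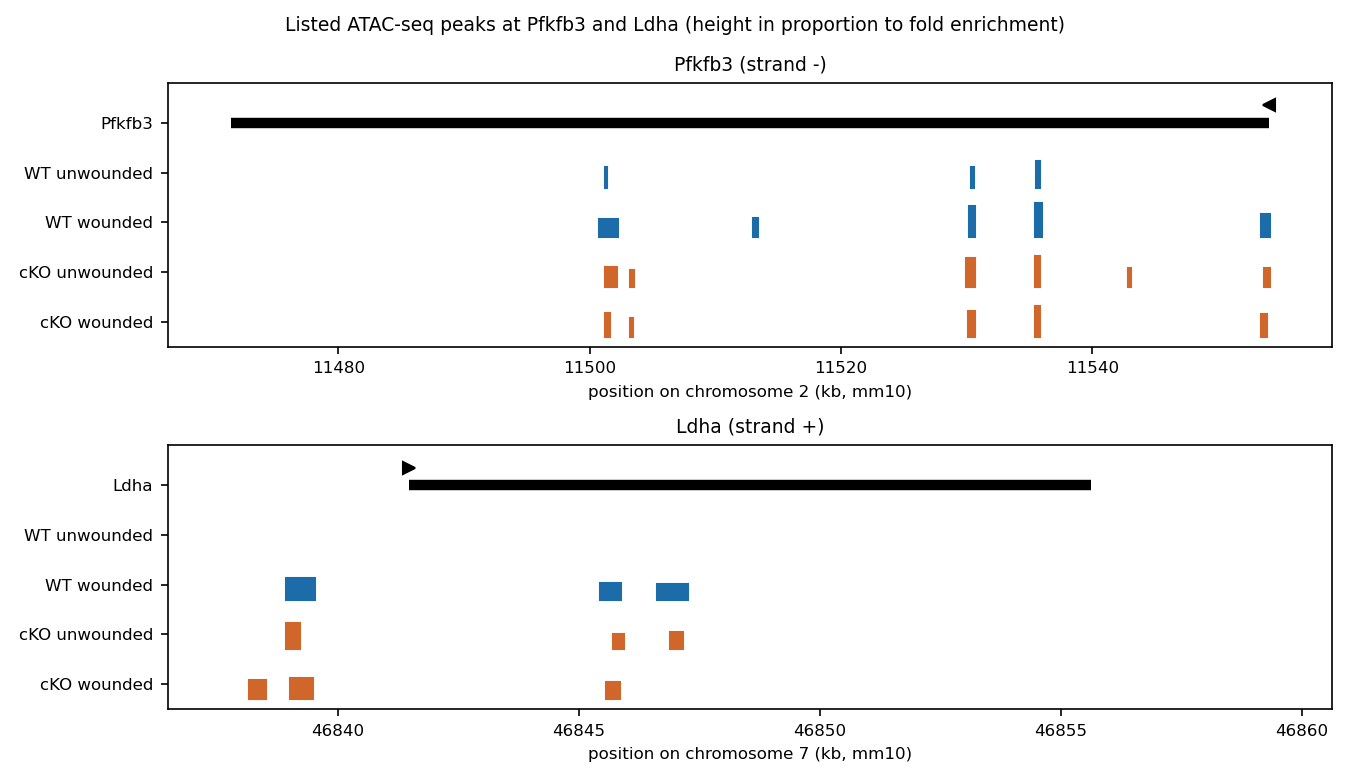
Listed ATAC-seq peaks (boxes, with height in proportion to fold enrichment) within 5 kb of *Pfkfb3* and *Ldha* in the 4 conditions, along chromosome 2 and chromosome 7 in kb (mm10). The black bar is the annotated gene and the arrowhead its start and direction. *Pfkfb3* has the same inner peak in all 4 lists (5.34 to 6.84), and *Ldha* has 3 peaks in every list but the WT unwounded one.

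Promoter windows of 300 bases, from 250 before to 50 after each RefSeq start, were available for 36 of 39 members (1 under its newer symbol, Ero1a for *Ero1l*). The windows missing were those of *Epas1*, *Bnip3l* and *Ndrg1*. They were searched on both strands for the core letters of the HIF response element, ACGTG and GCGTG, where CACGTG counts as a match on each strand. At least 1 match was found for 33 of 36 members (91.7%), beside 46.7% of the 27025 genes in the promoter table and 66.3% of the 10584 genes tested here that have a window. By group, matches were found for 14 of 16 enzymes and 9 of 9 other HIF targets. The share holds no test, as the members include genes that are known for such elements. The GRHL core, searched as AACCGGTT, AACCAGTT and AACCTGTT, was found for 2 of 36 members, *Hk1* and *Aldoc*, beside 2.12% of all genes in the table. A match is a description of the letters and not a binding site.

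The stretches before the start are shown for the 10 members with values in every library above that hold a HIF core there and have a listed peak over the window. Sequences are from RefSeq (GRCm38.p6, the mm10 build), written 5′ to 3′ on the strand of the gene and without bases that lie in an annotated exon. Capitals mark ACGTG or GCGTG on either strand, so that CACGT and CACGC are matches on the opposite strand. Where a gene has several windows, the one with the most matches is shown. The stretches shown for *Slc2a1*, *Pdk1*, *Bnip3* and *Ddit4* lie upstream of the annotated gene, and those of *Pfkl*, *Gapdh*, *Ldha*, *Pfkfb3*, *Hif1a* and *Ankrd37* start from a RefSeq start inside the annotated gene and lie outside its exons.
Slc2a1, chr4:119108495-119108710, plus strand: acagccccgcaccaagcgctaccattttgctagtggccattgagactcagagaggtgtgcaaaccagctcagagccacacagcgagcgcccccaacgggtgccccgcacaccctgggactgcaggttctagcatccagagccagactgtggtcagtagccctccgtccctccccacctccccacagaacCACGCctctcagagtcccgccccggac
Pfkl, chr10:78009808-78010004, minus strand: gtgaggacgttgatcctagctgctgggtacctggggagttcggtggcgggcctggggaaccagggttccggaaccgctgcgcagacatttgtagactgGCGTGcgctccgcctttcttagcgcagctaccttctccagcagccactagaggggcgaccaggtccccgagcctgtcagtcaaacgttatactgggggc
Gapdh, chr6:125165774-125166023, minus strand: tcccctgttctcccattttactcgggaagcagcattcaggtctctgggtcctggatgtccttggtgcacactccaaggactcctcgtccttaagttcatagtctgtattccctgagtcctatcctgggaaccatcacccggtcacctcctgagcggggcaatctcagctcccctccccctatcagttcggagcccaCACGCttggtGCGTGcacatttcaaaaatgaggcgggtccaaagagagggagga
Ldha, chr7:46845554-46845803, plus strand: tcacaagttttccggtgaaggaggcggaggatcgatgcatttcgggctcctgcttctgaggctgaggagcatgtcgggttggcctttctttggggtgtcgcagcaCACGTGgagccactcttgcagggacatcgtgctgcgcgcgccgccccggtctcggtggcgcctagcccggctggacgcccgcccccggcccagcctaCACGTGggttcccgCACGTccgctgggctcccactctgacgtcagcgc
Pfkfb3, chr2:11502102-11502340, minus strand: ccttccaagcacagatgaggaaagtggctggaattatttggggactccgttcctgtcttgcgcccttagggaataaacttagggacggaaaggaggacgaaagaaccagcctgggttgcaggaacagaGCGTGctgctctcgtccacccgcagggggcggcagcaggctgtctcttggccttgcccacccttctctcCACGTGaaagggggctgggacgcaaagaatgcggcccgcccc
Pdk1, chr2:71872974-71873223, plus strand: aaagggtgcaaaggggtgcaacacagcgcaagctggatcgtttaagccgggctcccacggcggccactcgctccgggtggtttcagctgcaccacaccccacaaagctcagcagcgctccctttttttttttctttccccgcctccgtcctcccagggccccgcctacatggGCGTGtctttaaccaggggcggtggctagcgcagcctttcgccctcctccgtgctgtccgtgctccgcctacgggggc
Hif1a, chr12:73907617-73907866, plus strand: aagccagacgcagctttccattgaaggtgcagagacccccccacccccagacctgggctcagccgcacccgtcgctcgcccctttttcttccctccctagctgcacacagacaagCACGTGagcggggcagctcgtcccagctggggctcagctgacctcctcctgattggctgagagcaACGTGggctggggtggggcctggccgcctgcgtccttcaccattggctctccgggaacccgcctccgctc
Bnip3, chr7:138909520-138909756, minus strand: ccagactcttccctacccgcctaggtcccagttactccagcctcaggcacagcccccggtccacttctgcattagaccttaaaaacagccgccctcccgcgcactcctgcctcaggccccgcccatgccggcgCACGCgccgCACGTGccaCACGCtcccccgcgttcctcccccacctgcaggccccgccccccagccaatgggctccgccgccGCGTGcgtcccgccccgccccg
Ankrd37, chr8:45999868-46000100, minus strand: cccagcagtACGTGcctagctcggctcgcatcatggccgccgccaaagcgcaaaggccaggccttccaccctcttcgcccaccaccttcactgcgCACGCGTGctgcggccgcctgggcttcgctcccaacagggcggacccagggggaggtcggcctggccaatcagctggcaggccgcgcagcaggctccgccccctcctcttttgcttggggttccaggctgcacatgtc
Ddit4, chr10:59951835-59952020, minus strand: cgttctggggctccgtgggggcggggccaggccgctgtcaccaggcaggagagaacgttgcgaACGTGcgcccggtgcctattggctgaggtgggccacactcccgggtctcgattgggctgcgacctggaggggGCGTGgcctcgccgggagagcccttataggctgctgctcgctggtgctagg
*Ldha* and *Bnip3* had 5 matches each in the stretch shown, *Hif1a*, *Pfkfb3* and *Ankrd37* 3 each, *Gapdh* and *Ddit4* 2 each and *Slc2a1*, *Pfkl* and *Pdk1* 1 each. Peaks over the windows of *Slc2a1*, *Hif1a*, *Bnip3*, *Ankrd37* and *Ddit4* were listed in all 4 conditions, with fold enrichments of 3.49, 3.61, 3.02 and 3.61 for *Slc2a1* and 4.999, 5.70, 5.11 and 5.57 for *Hif1a* (WT unwounded, WT wounded, cKO unwounded and cKO wounded). Those of *Ldha* and *Gapdh* were listed in all but WT unwounded, and those of *Pfkl*, *Pfkfb3* and *Pdk1* in WT wounded and cKO unwounded only.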

How the data were processed

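Per the labels and methods, RNA-seq libraries of sorted keratinocytes were read as single 100-base reads. The deposited RNA-seq tables of the authors hold read counts as whole numbers for each gene symbol and are not normalized. The submitters' processing notes name FastQC and kallisto with mm10, and which program made the deposited counts, its annotation and its strand setting are not given in the sources used here, so reads of a gene and of an antisense partner cannot be told apart. Tallies of unassigned reads were left out of library sizes: reads without a unique alignment were 3.46% to 4.74% and ambiguous reads 1.34% to 1.45% per library. Both are shares of the sum of gene counts and these tallies, and not of all reads sequenced. Mitochondrially encoded genes were not used here. For ATAC-seq the authors deposited MACS2 broad peaks with a fold enrichment, a −log10 p-value, a −log10 q-value and a score, which was not used.

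Counts were filtered with filterByExpr, normalized by TMM and tested with edgeR's quasi-likelihood test, two-sided, in 1 fit of 7 libraries in 4 groups (additive in genotype and treatment for the comparison over both genotypes). Adjusted p-values follow Benjamini and Hochberg and span all 14045 genes in the test. Each SE was derived from the test, as the absolute log2 fold change divided by the square root of its F statistic. The biological coefficient of variation was 31.6%. The tests were tried on simulated counts. Replicates varied beyond sampling noise (chi-square per degree of freedom of 29.2 to 39.9). The cKO comparison within the label has 1 unwounded library and was described by a 2-fold rule on log2 CPM (prior count 2). Gene spans and exons are from GENCODE vM21, and *Aldoa* joins 2 annotated genes of that symbol. Alternatives were RLE normalization, DESeq2, the likelihood ratio test, no filter, a minimum of 10 counts in each library, a replicate block, only the libraries compared, each library left out in turn, another prior count (0.5), and for peaks equal list lengths, a fold enrichment from 4, q up to 0.01, gene bodies alone, a distance of 1 kb and a 50% overlap.

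Values in every library are given for members with an unadjusted P under 0.05 in any of the 3 tests or past the 2-fold rule, for *Hif1a*, *Slc2a1*, *Ldha*, *Gapdh*, *Vegfa* and *Car9* in any case, and for the member highest per kb of exon in each group. Of the other pathway lists the rule names genes with an unadjusted P under 0.05 in the WT wounding or the wounded genotype comparison, and of each marker list its most abundant gene. A gene of the pathway lists that the rule names is not reported here, and counts of called genes in its list that include it are left out. Genes named outside this rule were chosen after their values were seen. The members and lists were chosen with earlier results of these data known. Programs were Python 3.11.15 with matplotlib 3.10.9, pandas 2.3.3 and numpy 2.4.6, and R 4.3.3 with DESeq2 1.42.0, limma 3.58.1 and edgeR 4.0.16.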

Additional observations from a re-analysis of the deposited data

Results flagged for a closer look

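For 3 members the wounded libraries all lay above, or all below, the unwounded ones in WT. With the cKO label the direction was the reverse, again without overlap. This was so for 10.6% of all genes tested. *Pfkm*, the muscle-type phosphofructokinase gene, had 13.9 and 17.3 (WT unwounded), 18.1 and 19.1 (WT wounded), 22.3 (labelled cKO, unwounded) and 11.1 and 18.9 CPM (labelled cKO, wounded). It was higher after wounding in WT and lower with the cKO label. The difference of the responses was -0.87 on the log2 scale (SE 0.48, adjusted p = 0.790 in edgeR's quasi-likelihood test). *Vhl* was lower after wounding in WT and higher with the cKO label, a difference of 2.14 (SE 0.78, adjusted p = 0.544 in edgeR's quasi-likelihood test). *Adm*, with 4.58 and 5.18 (WT unwounded), 7.63 and 6.68 (WT wounded), 8.30 (labelled cKO, unwounded) and 8.08 and 5.04 CPM (labelled cKO, wounded), was higher after wounding in WT and lower with the cKO label, by little in the first of the wounded libraries, a difference of -0.91 (SE 0.69, adjusted p = 0.859 in edgeR's quasi-likelihood test). None passed the adjusted test, and all use the single unwounded library labelled cKO.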

How the results depend on the processing

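Of 216 alternatives to the counts and medians, 181 stayed within 1.5 times the count or the spread between replicates, and of 295 for single named genes 262 kept direction and side of the threshold. The cause of the others was not tested. These tallies are a weak check. No named gene passed the adjusted threshold in the main setting, so none could lose a call. For medians the spread was the SD of a level, 0.33 for the enzymes and 0.49 for the other HIF targets, so smaller shifts counted as unchanged. In WT wounding the adjusted count of 0 was 1 with DESeq2 and 2 with no filter, and the unadjusted count of 3 was 7 with no filter and 2 to 10 with a library left out. Between the wounded groups the unadjusted count of 0 was 2 with no filter, 1 with the replicate block and 0 to 5 with a library left out. Over both genotypes the adjusted count of 0 was 2 with DESeq2, 2 with the likelihood ratio test, 9 with no filter and 0 to 5 with a library left out, and the unadjusted count of 10 was 19 with no filter and 3 to 21. For the difference of responses, whose alternatives were chosen after seeing the data, the adjusted count of 0 was 5 with no filter and the unadjusted count of 9 was 16 with no filter and 1 to 19 with a library left out. With no filter edgeR also called more genes in all after adjustment (96, 51, 305 and 203 of 16280 in these comparisons). At an unadjusted P under 0.05 it then called 5.57%, 4.77%, 7.32% and 7.23% of all genes, in the same order. The 2-fold count of 5 was 5 without the first wounded library labelled cKO (11.3% of all genes) and 18 without the second (9.69%).

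The enzyme median was -0.28 to 0.36 in WT wounding and -0.24 to 0.39 between the wounded groups with a library left out; that of the other HIF targets in WT was 0.17 to 0.75. Named genes that turned sign, all with a library left out, were *Slc2a1* (-0.15 to 0.82), *Gapdh* (-0.28 to 0.32) and *Ldha* (-0.30 to 0.43) in WT wounding, and *Slc2a1* (-0.35 to 0.59), *Gapdh* (-0.33 to 0.39), *Ldha* (-0.26 to 0.51), *Hif1a* (-0.31 to 0.046) and *Car9* (-1.09 to 0.12) between the wounded groups. Where 1 library of a group was left, it was assumed to vary like the other groups. Replicate numbers are shared between the WT groups and the wounded groups, but deviations of same-numbered libraries correlated across genes at 0.154 in WT, -0.011 between WT unwounded and cKO wounded and -0.039 between the wounded groups, and what the numbers share is not stated. The unwounded library labelled cKO is number 2 in its title, used for the block, and number 1 in the name of its file, so its place in the block is uncertain. The replicate block changed no other count by over 1.5 times. Adding named pseudogenes to their members could change nothing, as none is listed. With a fold enrichment of at least 4, 15 members had a peak in WT unwounded, beside 34.9% of genes. With equal lists 19 had one in each of the others, beside 45.1% to 47.4% of genes.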

Other observations

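Among the further pathway genes, some chosen after their values were seen stood apart in the unwounded library labelled cKO. *Pdk4*, a kinase that keeps pyruvate out of mitochondria when fat is burned, was at 111 CPM there and at 18.7 to 43.3 CPM in the other 6 libraries. *Pdk2* was at 27.0 CPM there and at 6.68 to 13.6 CPM in the others. *Fam162a*, a HIF target in mitochondria, was at 60.2 CPM there and at 116 to 273 CPM in the others.

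These values cover 7 libraries, with 2 in each full group, and 1 library often set a direction. In comparisons with the unwounded library labelled cKO, genotype, sex and animal cannot be told apart. Transcript counts show neither HIF protein nor enzyme activity. Low members such as *Car9*, *Ankrd37*, *Pfkfb4* and *Adm* had 7 to 127 counts per library. Peak lists hold no replicates and differ in length.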
